A study of Mus musculus with 26 samples.

Results

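The interferon-response gene families were taken as every gene whose platform symbol begins with Irf, Stat, Oas, Ifi, Ifit, Ifitm, Isg, Mx or Gbp followed by a number. The rule found 27 of the 6540 named genes on the arrays, on 54 of 13662 gene rows. RNA of 13 groups of mice, 2 samples per group, was compared on 26 arrays with 2 channels each, and every sample was on 2 arrays, once in each channel. The wild type groups were bl6 and bl10. The dystrophin-deficient groups were mdx and mdx3cv, and the sarcoglycan-deficient groups described singly were sgca, sgcb, sgcb2 and sgcd. A seventh line belongs to the pool of dystrophin- or sarcoglycan-deficient lines, which held 14 samples. The dysferlin-deficient groups were dysf and sjl, sspn lacked sarcospan, and hDMD was taken by its name to carry the human dystrophin gene. No group was labelled with a drug or other treatment. A sample is named by its group and its labelled number, so bl6 1 is sample 1 of bl6. For tissue, age, sex, strain background and dyes, nothing is given in the sources used here. Strain and missing protein therefore cannot be told apart in a line. Whether sample 1 and sample 2 of a group were separate mice is not labelled, so p-values reflect the spread between these samples alone, and that spread may be technical.

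Interferons are secreted proteins that bind receptors on the cell surface and activate JAK kinases, which phosphorylate STAT proteins. Type I interferons activate a complex that contains STAT2 and IRF9 and binds the interferon-stimulated response element (ISRE), and interferon gamma acts through the gamma-activated site (GAS). The induced genes include antiviral effectors such as MX, OAS, IFIT and ISG15 proteins, guanylate-binding proteins and further IRF and STAT factors, which many cell types can express, among them macrophages. In dystrophic muscle, fibres degenerate and regenerate, and macrophages and other leukocytes enter the tissue.

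Start regions are shown for 7 members that passed the test described below and hold the letters of these elements. Ifi203 passed and holds them too, with an ISRE match that began 35 bases before its start, but its sequence is not printed. RefSeq start regions (GRCm38.p6, 250 bases before to 50 after each gene start) were matched for 25 of the 27 members, and Gbp4 and Mx1 had none. The letters searched for the ISRE were GAAA, any 2 bases and GAAA again, on both strands, and for the GAS TTCNNNGAA, which reads alike on both strands. Matches to one motif may overlap each other, and an ISRE match overlapped a GAS match in 0 member windows. At least 1 ISRE match was found for 10 of the 25 members, against 3.98% of the 26994 genes in the table. At least 1 GAS match was found for 6 of the 25, against 9.55% of all genes. Of the 9 members with a window that passed the test in the pooled lines, 7 held the ISRE letters (Gbp3, Ifi203, Ifit1, Ifit3, Isg15, Oas1a and Stat2). Of the 16 that did not pass, 3 held them (Gbp2b, Irf2 and Stat4). A match is a description of the letters and not a binding site. The sequences below are the 250 bases before the gene start, read 5′ to 3′ on the gene's strand, with the matched letters in capitals.
Isg15 (chr4:156200819-156201068, minus strand): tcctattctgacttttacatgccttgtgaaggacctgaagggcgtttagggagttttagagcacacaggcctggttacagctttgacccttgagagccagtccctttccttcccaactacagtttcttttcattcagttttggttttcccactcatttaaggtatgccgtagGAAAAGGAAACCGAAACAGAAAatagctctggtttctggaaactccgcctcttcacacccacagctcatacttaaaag
Oas1a (chr5:120907526-120907775, minus strand): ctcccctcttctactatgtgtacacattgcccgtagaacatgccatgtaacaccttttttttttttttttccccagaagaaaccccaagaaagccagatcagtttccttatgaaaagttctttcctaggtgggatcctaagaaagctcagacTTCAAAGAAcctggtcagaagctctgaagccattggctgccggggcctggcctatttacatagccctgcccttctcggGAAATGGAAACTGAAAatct
Ifit1 (chr19:34640639-34640888, plus strand): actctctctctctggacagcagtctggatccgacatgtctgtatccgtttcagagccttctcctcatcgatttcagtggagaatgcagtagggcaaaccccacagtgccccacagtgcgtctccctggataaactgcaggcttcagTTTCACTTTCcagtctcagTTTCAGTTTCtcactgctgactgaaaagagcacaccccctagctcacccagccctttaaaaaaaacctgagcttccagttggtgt
Ifit3 (chr19:34583279-34583528, plus strand): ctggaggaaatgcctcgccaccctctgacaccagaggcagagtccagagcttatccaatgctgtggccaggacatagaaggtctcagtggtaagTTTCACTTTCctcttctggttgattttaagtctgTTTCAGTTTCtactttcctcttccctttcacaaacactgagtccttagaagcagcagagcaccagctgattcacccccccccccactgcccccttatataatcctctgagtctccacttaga
Stat2 (chr10:128270248-128270497, plus strand): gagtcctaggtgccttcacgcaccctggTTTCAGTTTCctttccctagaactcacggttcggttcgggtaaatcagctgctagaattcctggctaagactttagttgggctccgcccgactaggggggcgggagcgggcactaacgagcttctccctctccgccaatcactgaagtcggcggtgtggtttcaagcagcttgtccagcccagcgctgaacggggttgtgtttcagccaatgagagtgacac
Gbp3 (chr3:142559794-142560043, plus strand): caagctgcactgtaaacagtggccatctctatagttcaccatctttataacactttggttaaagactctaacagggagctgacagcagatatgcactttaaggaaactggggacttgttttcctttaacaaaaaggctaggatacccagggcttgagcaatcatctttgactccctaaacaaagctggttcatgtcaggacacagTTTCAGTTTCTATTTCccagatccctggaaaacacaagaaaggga
Irf8 (chr8:120736108-120736357, plus strand): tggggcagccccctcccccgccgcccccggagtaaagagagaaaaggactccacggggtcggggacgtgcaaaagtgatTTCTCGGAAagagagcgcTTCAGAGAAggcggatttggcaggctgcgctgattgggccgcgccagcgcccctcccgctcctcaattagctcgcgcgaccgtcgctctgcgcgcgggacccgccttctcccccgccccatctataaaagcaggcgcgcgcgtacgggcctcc

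In Isg15, 3 overlapping ISRE matches began 78, 72 and 66 bases before the gene start. Oas1a held 2 overlapping matches that began 20 and 14 bases before its start, and a GAS match that began 98 bases before it. Ifit1 and Ifit3, both on chromosome 19, held 2 separate ISRE matches each, which began 104 and 85 bases before the start of Ifit1 and 156 and 122 bases before that of Ifit3. The single Stat2 match began 222 bases before the start. Irf8, a factor of the myeloid lineage, held 2 GAS matches that began 171 and 153 bases before its start.

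Every value below is a log2 ratio or a log2 difference, and a difference of 1 is a 2-fold change. The deposited ratios were taken to be on a generalized natural log scale, as read from 19 of the 26 arrays. Such a scale understates the change of dim spots. The sign takes channel 1 as the numerator, a likely direction that no label states. With that direction, RNA of the gene whose protein a line was taken to lack was lower there in 7 of 9 pairs of gene and line. In 3 of these the unadjusted p was under 0.05 (limma). The other 2 pairs were both Dysf, which was higher, at 0.55 ± 0.62 in dysf and 0.76 ± 0.50 in sjl. Sgca in the sgca line was lower by a log2 difference of -4.33 ± 0.49 (SE, n = 2). Each member was measured on 2 rows of spots that share 1 transcript, and the rows correlated over the 26 arrays with r from 0.17 for Ifit2 to 0.99 for Ifi203 (median 0.71). In 9 members r was at least 0.9 and in 7 it was under 0.5. The array probes' sequences are not analysed here, so signal shared between close copies of a family (Oas1a, Ifi203, Gbp3) was not tested. Since the arrays give ratios and no levels, the tissue could not be checked by its markers. A difference in RNA level per cell and a difference in the number of cells cannot be told apart in any of these values.

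The first comparison asked how the families differed between the 7 dystrophin- or sarcoglycan-deficient lines and wild type mice. Of the 27 members, 10 rose and 0 fell (limma, Benjamini-Hochberg over 6540 genes, adjusted p under 0.05). The genes that rose were the transcription factors Stat2 and Irf8, the antiviral effectors Mx1, Oas1a, Ifit1, Ifit3 and Isg15, the guanylate-binding protein gene Gbp3, and Ifi203 and Ifi30. Among all genes tested 6.45% rose and 1.35% fell. The log2 difference was above 0 in 20 of the 27 members and in 55.5% of all genes, and its median was 0.72 over the members and 0.06 over all genes. The call depended on the wild type samples and on the scaling of the arrays. With bl6 alone as the control 9 members rose, with bl10 alone 0 rose, and with arrays scaled alike 2 rose (Ifit3 and Oas1a). With bl10 alone the differences stayed above 0 but were smaller for most of the 10, for example 0.53 for Gbp3, 0.56 for Mx1, 0.79 for Ifit3, 0.81 for Ifit1, 0.96 for Isg15, 1.02 for Ifi203 and 1.16 for Ifi30. The count fell most when bl6 1, mdx 1, bl10 1, bl10 2, mdx3cv 2, sgcb2 1 or sgca 1 was left out. Fewer of all genes rose in each of these fits too, so the loss was not particular to the members. The median over the members in these fits lay between 0.48 without mdx 1 and 0.86 without sgcb2 1.

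**Figure D1:**
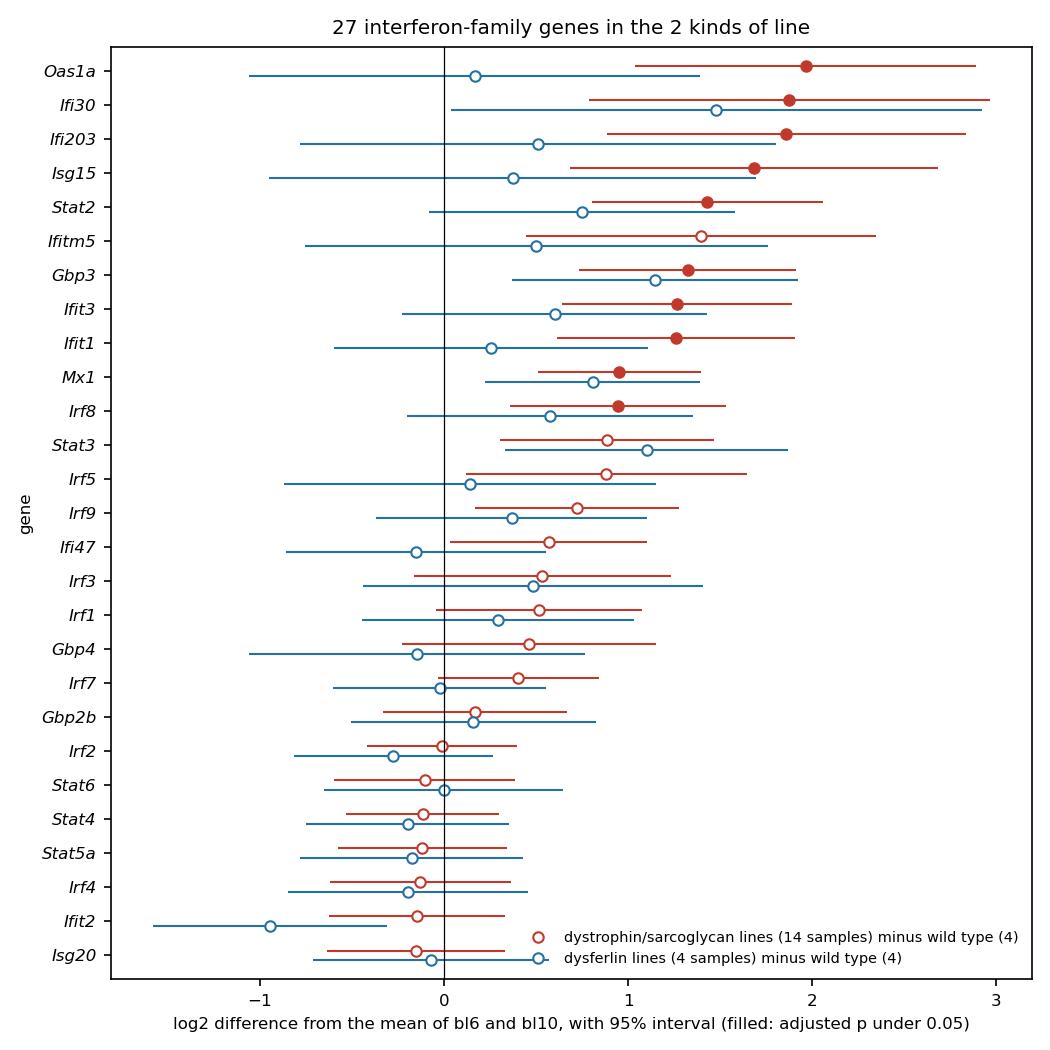
Log2 difference from the mean of bl6 and bl10 (x axis) with its 95% interval for each of the 27 genes (y axis), in the pooled dystrophin- or sarcoglycan-deficient lines (red, 14 samples) and in the dysferlin-deficient lines (blue, 4 samples), against 4 wild type samples. Filled points passed an adjusted p of 0.05, and the 10 filled points are all red and lie between 0.95 and 1.97.

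Many macrophage markers rose along with these genes. Of 17 macrophage markers measured, 11 rose in the same lines, among them Clec7a, Itgb2, Adgre1, Mpeg1, Ctss and Cd68. The estimate was above 0 for 16 of the 17, and Lyz2 was at -0.44 ± 0.23. The marker lists were chosen with earlier results of these data known, so these counts are a description and not independent evidence. The mean of the 17 over a sample, relative to the mean of the 4 wild type samples, ranged from -0.45 to 1.17 in wild type, from -0.42 to 4.10 in the 14 samples of the pooled lines, from 0.15 to 1.90 in the dysferlin-deficient lines and from -0.90 to -0.23 in sspn and hDMD. The other lists gave 5 of 8 fibroblast markers, 3 of 11 neutrophil markers, 1 of 15 T or NK lymphocyte markers, 1 of 8 B or plasma cell markers, 1 of 5 dendritic cell markers, 0 of 9 endothelial and 0 of 10 muscle fibre markers higher, and 0 of each list lower. Of all genes 6.45% rose and 1.35% fell, so a single call in a list of this size is no result about that cell type. Ratios give no zero level, so no marker can be called absent. The part of these cells in the interferon-family differences was not tested. In sgcb 1, whose macrophage mean was -0.42, the mean of the 27 members was 0.24, and in mdx 1, whose macrophage mean was 4.10, it was 1.64. In the 4 wild type samples the mean of the 27 members ranged from -0.25 to 0.56, so sgcb 1 lay within that range.

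**Figure D2:**
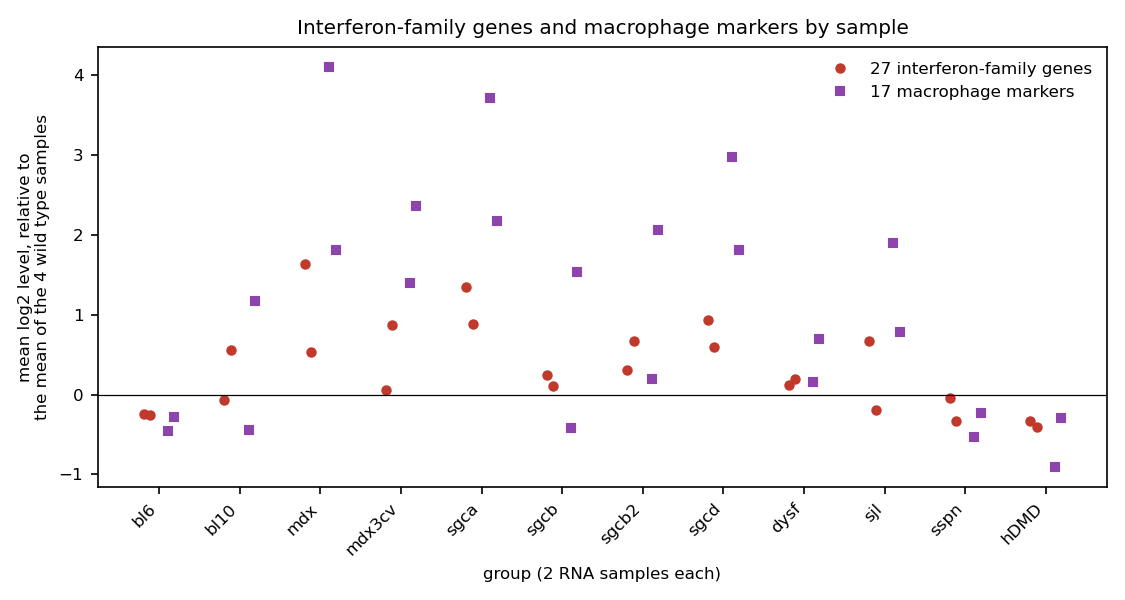
Mean log2 level per RNA sample (y axis, relative to the mean of the 4 wild type samples) of the 27 interferon-family genes (red circles) and of 17 macrophage markers (purple squares), by group (x axis, 2 samples each; the seventh pooled line is not drawn). mdx 1 was highest on both, at 1.64 and 4.10, and both means were below 0 in bl6, hDMD and sspn.

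Levels per RNA sample were solved from the loop of arrays and set relative to the mean of the 4 wild type samples. An error on 1 array passes along the loop, so these levels carry more error than the fitted differences, and the median SD between the 2 samples of a group was 0.81 over the members.

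Among the signal transducers, Stat2, the partner of IRF9 in the ISRE-binding complex, had wild type levels of -0.34 and 0.67 in bl6 and 0.71 and -1.04 in bl10. In the 14 samples of the pooled lines its level ranged from -0.89 to 4.06 with a median of 1.32. The 2 sets overlapped, and 12 of the 14 samples lay above the highest wild type sample. The pooled difference was 1.43 ± 0.30 (SE, n = 14 and 4; 2.70-fold, adjusted p = 0.00741). The 2 rows of Stat2 correlated at only 0.50, and with the first row alone Stat2 did not pass. With the first row Gbp3, Ifit1, Irf8 and Isg15 did not pass either, although their rows correlated at 0.67, 0.93, 0.91 and 0.97. The highest singly described samples were sgcd 2, sgcb2 1 and sgcb 1, at 4.06, 3.40 and 3.08, while their group partners sgcd 1, sgcb2 2 and sgcb 2 were at 0.94, 1.07 and 1.48.

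The other measured STAT genes did not pass. Stat3, which transmits interleukin-6 signals, differed by 0.88 ± 0.28 (adjusted p = 0.0554), with 8 of 14 samples above the highest wild type sample and 2 below the lowest. Stat4, Stat5a and Stat6, which serve interleukin-12, growth hormone or prolactin, and interleukin-4, had differences between -0.12 and -0.11. Their 95% intervals reached from -0.60 to 0.38 at the widest (the ends for Stat6).

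Irf8, which is needed for the development of monocytes and some dendritic cells, was at 0.66 and -0.65 in bl6 and at -0.62 and 0.61 in bl10. Across the pooled lines it ranged from 0.12 to 2.62 with a median of 0.88. The ranges overlapped, with 9 of the 14 samples above wild type. Its difference of 0.95 ± 0.28 (1.93-fold, adjusted p = 0.0431) was the nearest of the 10 to the threshold, and it passed in 13 of 36 alternative analyses. Irf9, the DNA-binding part of the ISRE-binding complex, differed by 0.72 ± 0.27 (adjusted p = 0.106), and Irf5, a factor of inflammatory macrophages, by 0.88 ± 0.37 (adjusted p = 0.157). Both were above 0 in the fit, but only 4 of 14 and 6 of 14 samples lay above the highest wild type sample. Irf3 and Irf7, which turn on type I interferon genes after a nucleic acid sensor fires, differed by 0.53 ± 0.34 and 0.40 ± 0.21, and Irf1, induced by interferon gamma, by 0.52 ± 0.27. None of these 3 passed. Irf2, an antagonist of Irf1, and Irf4, a factor of lymphocytes, had differences of -0.01 ± 0.20 and -0.13 ± 0.24.

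Among the antiviral effectors, the level of Mx1, a GTPase that blocks viral replication, was -0.75 and -0.01 in bl6 and 0.46 and 0.29 in bl10. The pooled lines ranged from 0.33 to 2.03 with a median of 0.91. Only 2 of the 14 samples lay within the wild type range, and all 4 dysferlin-deficient samples lay above it. Mx1 differed by 0.95 ± 0.21 (1.93-fold, adjusted p = 0.0101).

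Oas1a, which makes the 2′-5′ oligoadenylates that activate an RNA-degrading enzyme, was at -0.14 and -0.95 in bl6 and at -0.29 and 1.37 in bl10. In the pooled lines it ranged from -0.34 to 4.28 with a median of 1.68. Its highest singly described samples were mdx 1 (4.28), sgca 1 (3.05) and mdx3cv 2 (2.89), and its lowest was sgcb 1 (-0.34). bl10 2 lay among the pooled lines, and 9 of the 14 samples were above it. The difference of 1.97 ± 0.44 (3.91-fold, adjusted p = 0.0108) was the largest over the members.

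Isg15, a ubiquitin-like protein attached to other proteins during the interferon response, was at -0.69 and -0.66 in bl6 and at -0.22 and 1.58 in bl10. The pooled lines ranged from -0.14 to 4.19 with a median of 1.13. Only 6 of the 14 samples exceeded bl10 2, and the highest singly described samples were mdx 1, sgca 1 and mdx3cv 2, at 4.19, 3.10 and 2.48. Isg15 differed by 1.68 ± 0.48 (3.21-fold, adjusted p = 0.0356), and passed in 16 of 36 alternative analyses. Without mdx 1 the difference was 1.00. Both hDMD samples, at -1.49 and -1.03, were below every wild type sample.

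Ifit1 and Ifit3 encode proteins that bind viral RNA or its partners. Ifit1 was at 0.01 and -0.67 in bl6 and at 0.20 and 0.46 in bl10, and in the pooled lines it ranged from -0.29 to 2.82 with a median of 1.08. It was above wild type in 12 of the 14 samples and differed by 1.26 ± 0.31 (2.40-fold, adjusted p = 0.017). Ifit3 was at -0.46 and -0.59 in bl6 and at -0.29 and 1.34 in bl10, and ranged from -0.17 to 2.53 with a median of 1.17 in the pooled lines. As with Isg15, bl10 2 was the high wild type sample, and 7 of the 14 samples lay above it. Ifit3 differed by 1.27 ± 0.30 (2.40-fold, adjusted p = 0.0140) and passed in 30 of 36 alternative analyses. Without mdx 1 the difference was 0.84. The third member, Ifit2, differed by -0.15 ± 0.23 (adjusted p = 0.775), and its 2 rows correlated at 0.17, the lowest of the members. Isg20, an exonuclease that degrades RNA, differed by -0.15 ± 0.23. Ifitm5, a bone-forming cell gene of a family known for blocking viral entry, differed by 1.40 ± 0.46 (adjusted p = 0.0659). Without sgca 1 the difference was 0.64, and without bl6 2 it was 0.85. It had the widest range over the pooled lines, from -1.82 in sgcb 1 to 4.38 in sgca 1.

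The guanylate-binding proteins are GTPases that attack vacuoles of intracellular pathogens. Gbp3 was at -0.38 and -1.19 in bl6 and at -0.09 and 1.67 in bl10, and the pooled lines ranged from 0.35 to 2.92 with a median of 1.43. Because bl10 2 was high, only 5 of the 14 samples lay above all wild type samples. Gbp3 differed by 1.32 ± 0.28 (2.50-fold, adjusted p = 0.00791). Gbp4 and Gbp2b differed by 0.46 ± 0.33 and 0.17 ± 0.24 and did not pass.

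The Ifi genes are named for their induction and do not form one family. Ifi203, of the DNA-binding HIN-200 proteins, was at -2.07 and 0.18 in bl6 and at 0.60 and 1.29 in bl10. In the pooled lines it ranged from 0.06 to 3.80 with a median of 1.74, and 10 of the 14 samples lay above wild type. Its difference was 1.86 ± 0.47 (3.63-fold, adjusted p = 0.0198). bl6 1 stood below the other wild type samples, and the difference was 0.97 without bl6 1 and 1.07 without mdx 1. Ifi30, a lysosomal reductase that prepares antigens for presentation, was at -0.07 and -0.97 in bl6 and at -0.36 and 1.40 in bl10, and ranged from -0.48 to 3.84 with a median of 1.60 in the pooled lines. It differed by 1.88 ± 0.52 (3.67-fold, adjusted p = 0.0323), with 8 of the 14 samples above wild type. Ifi47, an immunity-related GTPase, differed by 0.57 ± 0.26 (adjusted p = 0.197).

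**Figure D3:**
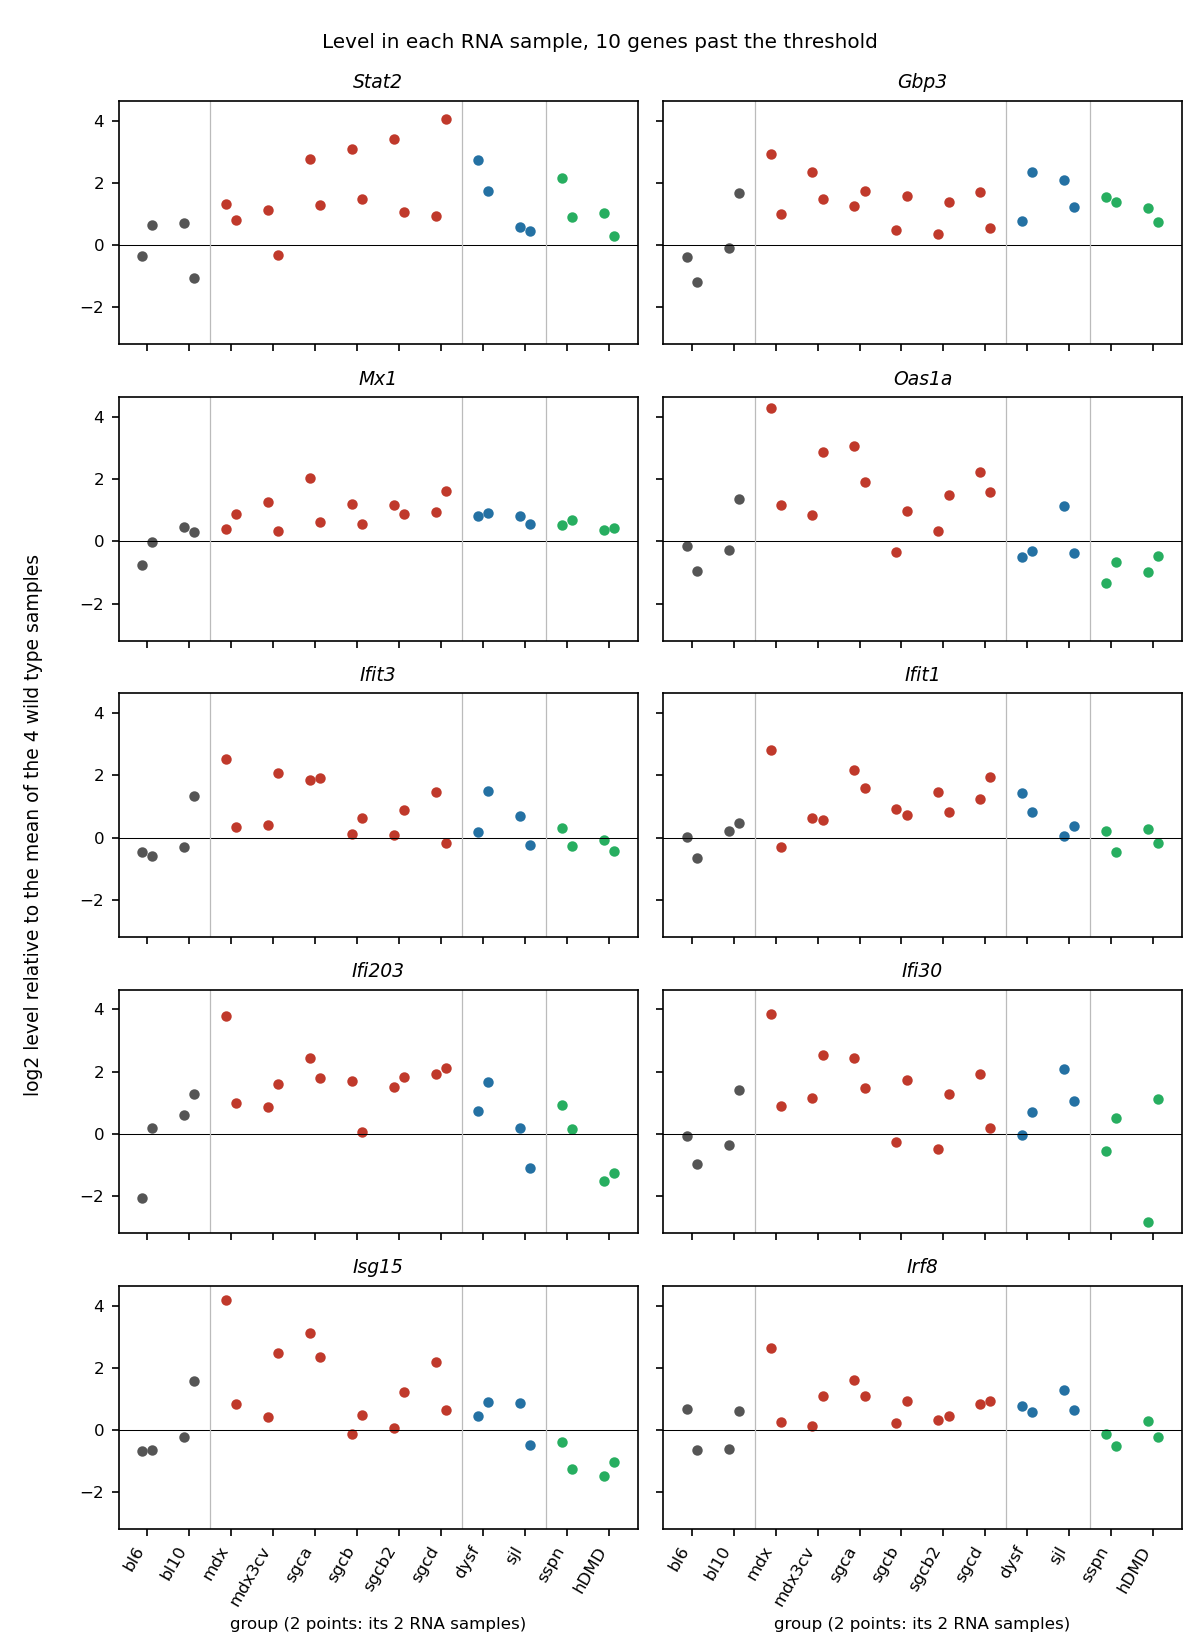
Log2 level of the 10 genes that rose (y axis, relative to the mean of the 4 wild type samples) in each RNA sample, by group (x axis; grey wild type, red dystrophin- or sarcoglycan-deficient, blue dysferlin-deficient, green sspn and hDMD; the seventh pooled line is not drawn). Wild type and pooled lines overlapped for each gene, and mdx 1 was the highest sample drawn for Gbp3, Oas1a, Ifit3, Ifit1, Ifi203, Ifi30, Isg15 and Irf8.

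Each line was then set against wild type by itself. In sgca 11 of 27 members rose and 0 fell, where 5.98% of all genes rose. The genes were Stat2, Ifit1, Isg15, Oas1a, Ifit3, Irf8, Mx1, Gbp3, Ifi203, Ifitm5 and Irf5. The largest difference was 2.94 ± 0.69 for Isg15 (7.70-fold, adjusted p = 0.0140), from samples at 3.10 and 2.36, both above the 4 wild type samples. Oas1a differed by 2.84 ± 0.64, Ifit1 by 2.60 ± 0.44 and Stat2 by 2.56 ± 0.43. Ifitm5 was at 4.38 and 2.68, above the highest wild type level of 1.92, and differed by 2.39 ± 0.65 (adjusted p = 0.0297). Irf5 was at 1.78 and 0.72, between which lay the highest wild type level of 1.00, and differed by 1.78 ± 0.52 (adjusted p = 0.0425). Over all genes 485 passed in sgca in either direction, 194 with arrays scaled alike and 11 with bl10 alone as the control. The count of members for sgca fell to 6 with arrays scaled alike and to 1 with bl10 alone. It was 0 without sgca 1, 3 without bl6 2 or mdx 2, 4 without bl10 1, and 7 without mdx 1.

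In sgcd 3 members rose, where 1.65% of all genes rose. They were Oas1a (2.75 ± 0.71, samples at 2.25 and 1.58), Stat2 (2.09 ± 0.48, samples at 0.94 and 4.06) and Ifit1 (1.95 ± 0.49, samples at 1.25 and 1.94). Each of these 6 levels lay above the highest wild type sample of its gene. Over all genes 139 passed in sgcd in either direction, 0 with bl10 alone, 240 with bl6 alone and 270 with array quality weights. With arrays centred 125 passed and with arrays scaled 148. The count of members for sgcd was 0 with bl10 alone, 6 with bl6 alone or array quality weights, and 1 with arrays centred or scaled. It was 0 without bl6 1, bl10 1, bl10 2, sgca 2, sspn 2 or any sample of sgcb2 or sgcd, 1 without dysf 2, mdx 1, sgcb 2, sspn 1 or a sample of mdx3cv, and 5 or 6 without sjl 1 or sjl 2.

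In mdx 1 member rose, where 1.22% of all genes rose: Gbp3, by 1.81 ± 0.40 (3.51-fold, adjusted p = 0.0296). Its samples were at 2.92 and 1.00, and the second lay below bl10 2. A further 15 members had an unadjusted p under 0.05 above 0 in mdx, where 10.6% of all genes were higher at that p. The mdx samples differed from each other. For Isg15 they were at 4.19 and 0.84, for Oas1a at 4.28 and 1.17, and for Ifit1 at 2.82 and -0.29. Over all genes 87 passed in mdx in either direction, 262 with bl6 alone, 1 with bl10 alone and 2 with arrays scaled alike. With array quality weights 47 passed and with the first row 45. The count of members was higher without mdx 2. With bl6 alone it was 7, and with bl10 alone, arrays scaled alike, array quality weights or the first row it was 0. It was also 0 without bl6 1, bl10 1, bl10 2, mdx 1, mdx3cv 2, sgcb2 1, sgcd 1, sspn 1 or sspn 2, and 2 to 7 without dysf 1 or any sample of sgca, sjl, hDMD or the seventh line.

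In mdx3cv, sgcb and sgcb2, 0 members passed (limma), where 0%, 0.107% and 0.199% of all genes passed. At an unadjusted p under 0.05, 3, 1 and 9 members were higher, where 5.52%, 9.62% and 6.85% of all genes were. The single member in sgcb is a share below that of all genes. The median over the members was 0.35 in mdx3cv, 0.35 in sgcb and 0.64 in sgcb2, against 0.04, 0.17 and 0.05 over all genes. Oas1a, for example, differed by 1.21 in mdx3cv, 0.71 in sgcb and 1.77 in sgcb2. All 10 genes that rose in the pool were above 0 in each of the 7 lines, which is part of what placed them there. A test of the differences among the 7 lines, added after the first results were seen, passed 0 members (limma's F test), where 0.168% of all genes passed. Ifit1 and Stat2 had an unadjusted F p under 0.05, at 0.00649 and 0.0177, where 3.87% of all genes did. Ifit1 ranged over the lines from 0.13 in mdx3cv to 2.60 in sgca, and Stat2 over 6 lines from 0.54 in mdx3cv to 2.56 in sgca.

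**Figure D4:**
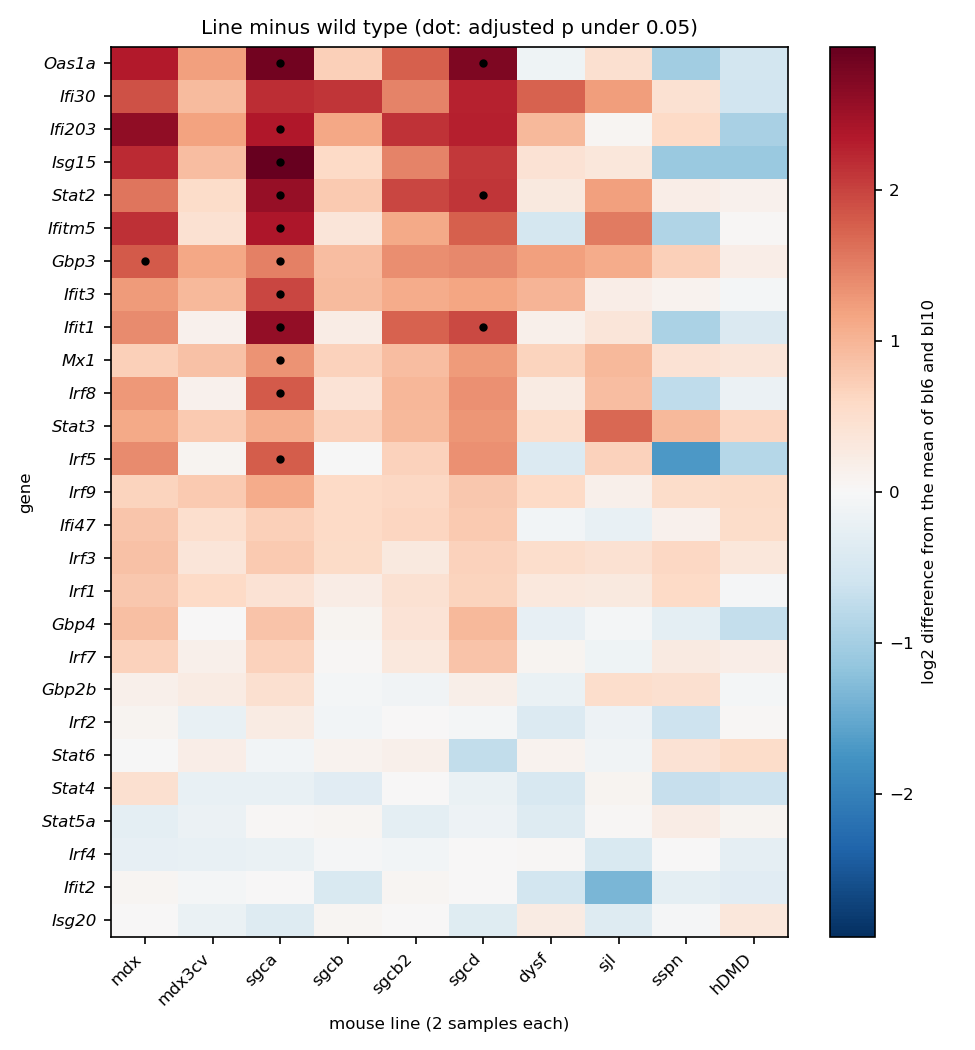
Log2 difference of each of 10 lines (x axis, 2 samples each) from the mean of bl6 and bl10 for the 27 genes (y axis, ordered by the pooled difference); colour gives the difference and a dot marks an adjusted p under 0.05. The 15 dots are in sgca (11), sgcd (3) and mdx (1), and sspn and hDMD hold mostly pale or blue cells for the upper genes.

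The arrays that set a line directly against a wild type sample differed widely. On the array of mdx 1 over bl6 1, Ifi203 was at 6.21, Isg15 at 5.18 and Oas1a at 4.82, and the mean of the 27 members was 2.01. On sgca 1 over bl6 2 the same genes were at 1.91, 3.47 and 3.60, with a mean of 1.47. On mdx3cv 2 over bl10 2 they were at -0.04, 0.61 and 1.12 (mean 0.18), and on sgcb2 1 over bl10 1 at 1.25, 0.59 and 1.02 (mean 0.50). Low ratios were found against bl6 too: the dysferlin-deficient sjl 2 over bl6 1 gave 0.64, -0.08 and -0.64 (mean -0.08). The wild type samples themselves differed on the array of bl10 1 over bl6 2, where the mean of the 27 members was 0.32, with Ifi203 at 0.76 and Isg15 at 0.73. Line and wild type strain change together between these arrays, so their parts cannot be told apart. The mean of the macrophage markers was 4.81 on mdx 1 over bl6 1, 3.73 on sgca 1 over bl6 2, 0.93 on mdx3cv 2 over bl10 2, 0.90 on sgcb2 1 over bl10 1, 0.97 on sjl 2 over bl6 1 and 0.09 on bl10 1 over bl6 2, and its part in the ratios was not tested. Without the array of mdx 1 and bl6 1, an alternative chosen after its values were seen, 2 members rose in the pool (Mx1 and Stat2). Of all genes 83 rose without this array, against 422 with it.

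**Figure D5:**
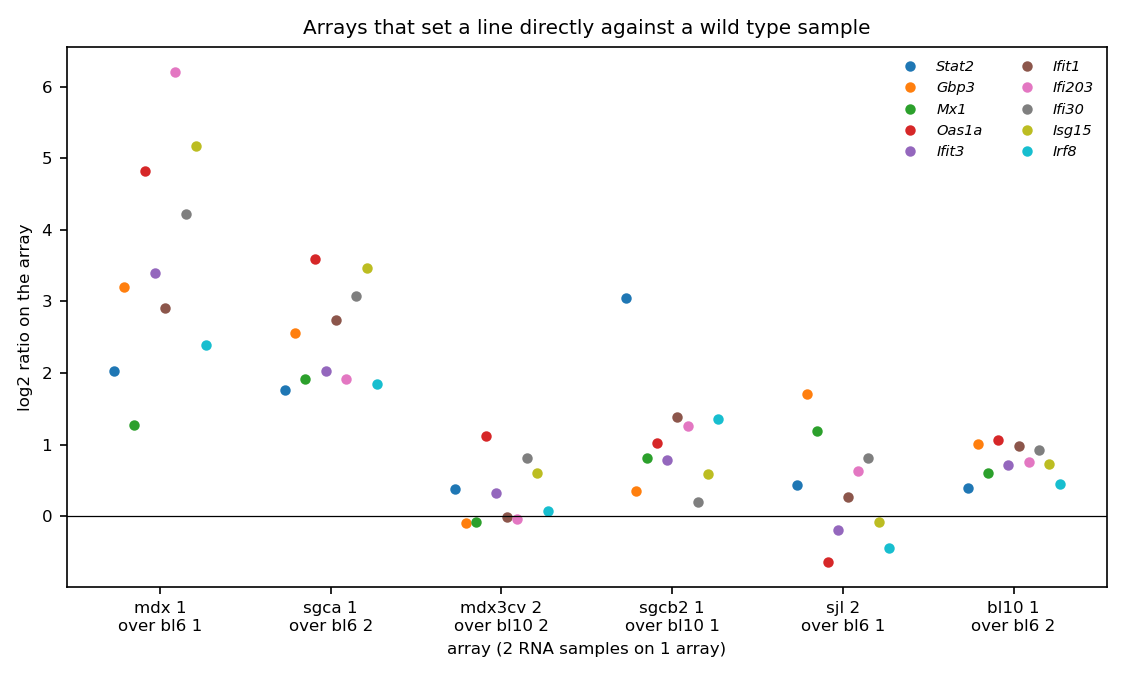
Log2 ratio (y axis) of the 10 genes that rose in the pool (1 colour per gene) on 6 single arrays that set a line, or bl10, directly against a wild type sample (x axis). On mdx 1 over bl6 1 the ratios reached 6.21, while on mdx3cv 2 over bl10 2 they lay between -0.10 and 1.12.

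The wild type strains were compared with each other, since the strain of the lines is not given. Between bl10 and bl6, 0 of 27 members passed (limma), where 0.0153% of all genes passed, and 3 were higher in bl10 at an unadjusted p under 0.05, where 5.43% of all genes were. These were Gbp3 (1.59 ± 0.45), Ifi203 (1.69 ± 0.74) and Mx1 (0.79 ± 0.34). The median was 0.27 over the members and 0.04 over all genes. Isg15, Ifi30 and Oas1a, which rose in the pooled lines, were higher in bl10 by estimates of 1.44, 1.44 and 1.20 that did not pass. For Stat2 and Irf8 the estimates were -0.29 and 0.05. The macrophage mean was 0.97 higher in bl10, from bl10 2 at 1.17 and bl10 1 at -0.44.

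In the dysferlin-deficient lines dysf and sjl, pooled against wild type, 0 of 27 members passed (limma), where 0.0459% of all genes passed. Above 0, Gbp3 (1.15 ± 0.37), Mx1 (0.81 ± 0.28), Stat3 (1.10 ± 0.37) and Ifi30 (1.48 ± 0.69) had an unadjusted p under 0.05, and below 0 Ifit2 did (-0.95 ± 0.31). Of all genes, 7.2% were higher and 1.57% lower at that p. The smallest adjusted p was 0.346. Mx1 was at 0.83 and 0.91 in dysf and at 0.81 and 0.56 in sjl, above the 4 wild type samples. Oas1a, in contrast, was at -0.50 and -0.30 in dysf and at 1.14 and -0.38 in sjl, within the wild type range. Both dysf samples also lay above every wild type sample for Stat2 (2.73 and 1.74), Ifit1 (1.42 and 0.84), Irf1 and Irf3. They lay below every wild type sample for Gbp4, Ifi47, Ifitm5, Irf2, Isg20 and Stat4. The fit did not always follow these levels: in dysf it gave 0.28 ± 0.53 for Stat2 and 0.15 ± 0.55 for Ifit1. The median difference was 0.26 over the members and 0.12 over all genes. Singly, dysf and sjl also had 0 members past the threshold, where 0.107% and 0.245% of all genes passed. At an unadjusted p under 0.05 there was 1 higher member in dysf, where 6.7% of all genes were higher. In sjl 6 members were higher and 1 was lower, where 7.48% and 2.16% of all genes were.

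The direct test of the pooled dystrophin- or sarcoglycan-deficient lines against the dysferlin-deficient lines passed 0 members (limma), where 0.122% of all genes passed. At an unadjusted p under 0.05, 8 members were higher in the former, where 3.78% of all genes were: Oas1a, Ifit2, Ifit1, Ifi203, Ifi47, Isg15, Stat2 and Ifit3. The largest was Oas1a, at 1.80 ± 0.45 (95% interval 0.87 to 2.73, adjusted p = 0.142). A difference between the 2 kinds of line was therefore not shown for any member, and a p that misses the threshold does not show that they were alike. For Mx1 and Gbp3 the direct differences were 0.14 and 0.18. Leaving out sgca 2 or sjl 1 gave 1 member past the threshold.

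The lines sspn and hDMD had 0 members past the threshold against wild type (limma), where 0.107% and 0.0153% of all genes passed. At an unadjusted p under 0.05 only Irf5 in sspn was found, at -1.70 ± 0.63, where 12.1% of all genes passed that p in sspn and 6.56% in hDMD. The median over the members was 0.13 in sspn and -0.03 in hDMD. Oas1a was at -1.34 and -0.65 in sspn and at -0.99 and -0.46 in hDMD, and Isg15 at -0.40 and -1.26 in sspn. The Oas1a levels lay in or below the lower part of the wild type range. Not all members were low in sspn: Mx1, at 0.52 and 0.70, and Stat2, at 0.90 and 2.16, lay above every wild type sample in both. Their fitted differences from wild type in sspn were 0.43 ± 0.37 and 0.20 ± 0.52. Both sspn samples were below every wild type sample for Gbp4, Irf2, Isg20 and Stat4, and both hDMD samples for Gbp4, Isg15, Isg20 and Stat4. The fitted differences did not always follow these levels. Isg20 was at -0.04 ± 0.40 in sspn and at 0.34 ± 0.39 in hDMD in the fit. The others named were below 0 there, between -1.09 (Isg15 in hDMD) and -0.29 (Gbp4 in sspn), and none passed.

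A comparison of the pooled lines with sspn and hDMD was added after these values were seen. It shares the pooled samples with the comparison against wild type, so it is not independent of it. In it 9 members rose and 0 fell, where 5.5% of all genes rose, and the median was 0.53 over the members and -0.03 over all genes. The genes were Isg15 (2.78 ± 0.54), Oas1a (2.75 ± 0.50), Irf5 (2.15 ± 0.41), Ifi203 (2.04 ± 0.52), Ifit1 (1.94 ± 0.35), Ifitm5 (1.82 ± 0.51), Irf8 (1.41 ± 0.31), Stat2 (1.27 ± 0.34) and Ifit3 (1.24 ± 0.33). Gbp3 and Mx1, at 0.88 and 0.56, did not pass. Gbp3 was at 1.55 and 1.37 in sspn and at 1.18 and 0.76 in hDMD, inside the range of the pooled lines. The count was 0 without a sample of the seventh line and 5 without the other, 2 without sspn 1, 4 without sspn 2 or mdx3cv 1, and 5 without bl10 2, mdx3cv 2 or sgcb 2.

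The rest of the interferon pathway was read from 6 written lists with 73 measured genes, of which 11 rose and 1 fell in the pooled lines, with a median of 0.28. Of all genes 6.45% rose and 1.35% fell, with a median of 0.06, so a single call in a list of this size is no result about that list. None of the 11 ligand genes passed. The smallest p-values there belonged to Ifna9, Ifna4 and Ifna2, at -0.47 ± 0.24, -0.44 ± 0.23 and -0.34 ± 0.21. Of 8 receptor and JAK genes, 1 rose: Ifnar1, a chain of the type I receptor, by 1.19 ± 0.25 (adjusted p = 0.00755). Its partner Ifnar2 was at 0.89 ± 0.28 (adjusted p = 0.0556) and Jak1 at 0.86 ± 0.32. Of 12 brakes on the signal, Ptpn2, a phosphatase that acts on JAK and STAT proteins, rose by 0.94 ± 0.29 (adjusted p = 0.0486). Cish, a feedback inhibitor best known from growth hormone signalling, fell by 2.84 on the log2 scale (SE 0.51, adjusted p = 0.00296). Ptpn6, a phosphatase of leukocytes, was at 1.16 ± 0.44 and did not pass.

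Of 6 sensors and adaptors 1 rose: Tbk1, the kinase that activates IRF3, by 1.22 ± 0.25. Zbp1, a sensor of Z-form nucleic acids, was at 1.29 ± 0.44 (adjusted p = 0.0764) and the related kinase gene Ikbke at 0.26 ± 0.27. Of 29 other interferon-induced genes 6 rose. They were the GTPase Tgtp1 (1.49 ± 0.31), the nucleotide phosphohydrolase Samhd1 (1.28 ± 0.30), the ubiquitin ligase Trim25 (1.17 ± 0.28), the chemokines Cxcl10 (1.87 ± 0.47) and Ccl5 (1.28 ± 0.33), and the protease Casp1 (1.98 ± 0.54). Of 7 antigen-processing genes 2 rose: Cd74, a chaperone of class II molecules (1.67 ± 0.34), and the peptidase Erap1 (0.69 ± 0.20), with B2m at 0.90 ± 0.30 (adjusted p = 0.0716). In the dysferlin-deficient lines 0 of the 73 passed, with a median of 0.18, and Cish was at -3.20 ± 0.67 (adjusted p = 0.106). Over all genes 422 rose and 88 fell in the main fit, 126 and 54 with arrays scaled alike, and 6 and 4 with bl10 alone. Without the array of mdx 1 and bl6 1 it was 83 and 27. The 12 pathway calls were 5 with arrays scaled alike, 0 with bl10 alone and 3 without that array. They were 1 without bl10 2, 2 without bl6 1, 3 without mdx 1, 5 without mdx3cv 2 and 22 without mdx 2.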

How the data were processed

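The 26 arrays were deposited by the authors as 1 table of values per spot, with no unit, direction or normalization stated per the labels. The scale was read from the values, since whole-number scanner intensities leave a ladder of repeated steps. A ladder that a generalized logarithm fitted within 0.01% was found on 19 of the 26 arrays. Its unit lay within 0.1% of the natural log on 19 of these and of log2 on 0. These arrays were selected by that fit, so its smaller misfit than that of a plain logarithm on all 19 is no test. On the other arrays no ladder met the limit. Where a unit could be read there, it lay between 0.52 and 0.97 of the natural log. A plain logarithm had the smaller misfit on an array where the 2 misfits were 3.37% and 4.06%. Log2 ratios were expected, so the values were divided by 0.6931, and nothing else was changed. Array medians reached from -0.074 to 0.173 in that natural log unit, and whether the authors centred the arrays is unknown. The precision is limited by the number of arrays, since ratios carry no depth.

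Rows of a gene were averaged, which gave 6540 genes, and 14 rows with several genes and 2740 with no gene listed were left out. Symbols are those of the platform annotation, and the Entrez identifiers of 26 of the 27 members are in the reference table. The ratios were fitted by generalized least squares in R 4.3.3 with limma 3.58.1, with a dye term, 12 group terms and the RNA sample as a random effect (variance ratio 0.207, by REML). Empirical Bayes raised the 13 residual degrees of freedom to 20.4, and the Benjamini-Hochberg adjustment covered every named gene. The fit was run on data simulated from its own model, which cannot show a misfit of that model to these arrays. Levels per sample were solved from the loop of arrays. The comparisons, pools and alternatives are those given in the text, and alternatives added after values were seen are named as such there. Every gene matching the rule is named, pathway genes are named where they passed or had the 3 smallest p-values of their list, and marker genes are summarised by list. The members and lists were chosen with earlier results of these data known. Results of the seventh pooled line by itself are not reported here. Start regions were read from RefSeq (GRCm38.p6), and figures were drawn with matplotlib 3.10.9.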

Additional observations from a re-analysis of the deposited data

How the results depend on the processing

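The results rest on 2 samples per group and 4 wild type samples, and leaving out 1 sample also removes both of its arrays. Across 36 alternatives, the 10 member differences that had passed in the pooled lines stayed above 0. In the dysferlin comparison 0 members had passed, so none could reverse. Members that had not passed in the pooled lines could change sign: over the left-out samples Ifit2 lay between -0.56 and 0.10, and Irf4 between -0.32 and 0.19. The median over the members in the pooled lines stayed between 0.48 and 0.86. The pooled count of 10 members became 2 with arrays scaled alike, 6 with the first row of each gene (5 of them among the 10), 0 with bl10 alone, and 2 without the array of mdx 1 and bl6 1. It was 0 to 13 over the left-out samples, and 11 without the seventh line, an alternative chosen after values were seen, like that array. For all genes, the 422 higher and 88 lower calls became 321 and 111 with centred arrays and 126 and 54 with scaled arrays. They became 289 and 59 with the first row of each gene, 6 and 4 with bl10 alone, and 83 and 27 without that array. Calls over all genes also changed with the sample left out. The pathway count of 12 became 5, 0 and 3 with scaled arrays, bl10 alone and without that array, and 1 to 22 over the left-out samples. In sgca, 11 became 6 with scaled arrays, 1 with bl10 alone and 0 to 15 over the left-out samples. In sgcd, 3 became 1 with centred or scaled arrays, 6 with array quality weights or bl6 alone, 0 with bl10 alone, 1 without that array and 0 to 6 over the left-out samples. In mdx, 1 became 0 with scaled arrays, array quality weights, the first row, bl10 alone or without that array, 3 with no random effect, 7 with bl6 alone and 0 to 11 over the left-out samples. In sgcb2, 0 became 1 with no random effect, 2 with array quality weights and 0 to 2 over the left-out samples, and in sjl 0 became 1 with no random effect and 0 to 1 over the left-out samples. The direct test of the pooled against the dysferlin-deficient lines gave 0 to 1, and the added comparison with sspn and hDMD gave 0 to 12. The cause of these changes was not tested. A replicate block of the sample numbers 1 and 2 left the pooled count at 10, the same 10 genes. These numbers share only a label: over 78 pairs of groups, the deviations of same-numbered samples correlated from -0.80 to 0.66 (median -0.03), and 31 pairs were over 0.1, so the samples were not treated as paired.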
